A study of Rattus norvegicus with 6 samples.

Results

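The metallothioneins, their zinc-sensing regulator Mtf1 and the SLC30 zinc exporters were followed in rat liver after administration of a metal chelator. The genes are Mt1, Mt2A, Mt3, Mtf1, Slc30a1, Slc30a4, Slc30a5, Slc30a7 and Slc30a10. Every non-control probe whose RefSeq accession belongs to one of them was taken, which gave 15 of the 61657 non-control probes on the array, for 9 of the 15284 genes with a named probe. Mt2A and Slc30a5 had 3 probes each, Mt1 and Mt3 had 2, and the remaining genes had 1.

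The livers came from male Sprague-Dawley (Crl:CD(SD)) rats bought at 5 weeks of age, with 1 one-colour (Cy3) Agilent expression array per rat. The NTA group of 3 rats received nitrilotriacetic acid trisodium monohydrate, a chelator that binds zinc, iron and calcium ions, at 1000 mg/kg/day, and 3 vehicle rats received the vehicle alone. The labels give the vehicle both as purified water and as corn oil, and the exposure both as 28 days and as 9 weeks, and neither point was settled here. Rats of both groups ate the same basal diet, whose zinc content is not given in the sources used here. Zinc concentrations of liver or blood were not analysed here, so only transcripts are described. The 6 arrays were close in depth, with 75th percentiles of 464 to 558 signal units. The NTA arrays all came from 1 slide and the vehicle arrays from 2 others, so a slide effect cannot be told apart from NTA. Vehicle replicate 3 had a slide and a scan day to itself and a median local background of 40, against 54 to 61 on the other arrays.

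Metallothioneins are small cysteine-rich proteins that hold zinc and copper in the cytosol, and liver makes large amounts of them when zinc is plentiful. Zinc binding lets the zinc finger factor MTF1 attach to metal response elements, short DNA motifs in the promoters of metallothionein genes and of the exporter gene Slc30a1. The SLC30 proteins (also called ZnT) move zinc out of the cytosol, either across the plasma membrane or into vesicles and the secretory pathway.

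Because the comparison concerns a zinc-binding agent, the promoters of the metallothioneins and Slc30a1 are shown with matches to the metal response element marked. The sequences are RefSeq's on build GRCr8, each 300 bases long, from 250 bases before the annotated start to 50 bases from the start on, read 5′ to 3′ along the gene. A promoter was listed for 7 of the 9 genes, Mt1, Mt2A, Mt3, Mtf1, Slc30a1, Slc30a4 and Slc30a5. Capitals mark the core of the metal response element, searched as TGCACNC and TGCGCNC on both strands. Mt1 lies at chr19:10832926-10833225 (minus strand), Mt2A at chr19:10838659-10838958 (minus strand), Mt3 at chr19:10856031-10856330 (minus strand) and Slc30a1 at chr13:106021769-106022068 (plus strand).
Mt1: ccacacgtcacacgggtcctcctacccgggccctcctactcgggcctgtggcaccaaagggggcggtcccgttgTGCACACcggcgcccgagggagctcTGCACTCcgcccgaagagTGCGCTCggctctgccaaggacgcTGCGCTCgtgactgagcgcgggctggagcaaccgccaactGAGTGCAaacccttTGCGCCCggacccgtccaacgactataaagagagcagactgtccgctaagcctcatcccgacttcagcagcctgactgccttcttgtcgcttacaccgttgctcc
Mt2A: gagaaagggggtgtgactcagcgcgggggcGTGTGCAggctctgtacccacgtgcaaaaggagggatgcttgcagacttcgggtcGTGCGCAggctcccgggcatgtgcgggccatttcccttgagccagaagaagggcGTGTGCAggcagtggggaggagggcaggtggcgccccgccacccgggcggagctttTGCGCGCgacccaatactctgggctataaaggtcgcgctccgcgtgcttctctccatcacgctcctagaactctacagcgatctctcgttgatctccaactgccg
Mt3: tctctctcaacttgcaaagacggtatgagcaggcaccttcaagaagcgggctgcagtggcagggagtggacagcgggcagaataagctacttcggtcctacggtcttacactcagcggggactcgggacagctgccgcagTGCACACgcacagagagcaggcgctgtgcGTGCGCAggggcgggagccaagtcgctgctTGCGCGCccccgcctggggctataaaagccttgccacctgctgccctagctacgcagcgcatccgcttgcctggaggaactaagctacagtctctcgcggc
Slc30a1: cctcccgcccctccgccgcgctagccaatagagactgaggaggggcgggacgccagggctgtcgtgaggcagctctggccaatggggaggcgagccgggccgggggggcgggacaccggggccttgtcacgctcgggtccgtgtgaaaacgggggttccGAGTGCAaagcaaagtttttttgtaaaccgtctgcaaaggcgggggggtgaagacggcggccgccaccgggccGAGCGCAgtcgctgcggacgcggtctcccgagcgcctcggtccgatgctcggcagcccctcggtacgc

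The Mt1 window held 6 separate cores, between −176 and −49 from the start, 5 of them on the gene's own strand. As many separate stretches were found in 0.0299% of the 33469 promoter windows of the same length, and at least 1 core in 24.2%. Mt2A held 4 cores, as many as or more than which occurred in 0.257% of windows, and its core at −55 to −49 stood at the same distance from the start as one of Mt1. Mt3 held 3, as did Slc30a4 (1.13% of windows). G and C made up 82.3% of the Slc30a4 window, against 62.7% to 70.3% in Mt1, Mt2A, Mt3, Mtf1, Slc30a1 and Slc30a5. The windows compared were not matched for this share. Mtf1 and Slc30a1 held 2 each (5.39% of windows), and Slc30a5 held 2 overlapping matches that form 1 stretch. The letters tataaa stood between −45 and −16 in Mt1, Mt2A and Mt3, as in 1.62% of all windows, and in none of the other 4 promoters. A match describes the letters in the window and is not evidence of bound MTF1. On GRCr8, Mt1, Mt2A, Mt3 and Mt4 lie next to each other on chromosome 19, between Nup93 and a noncoding RNA gene.

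**Figure D1:**
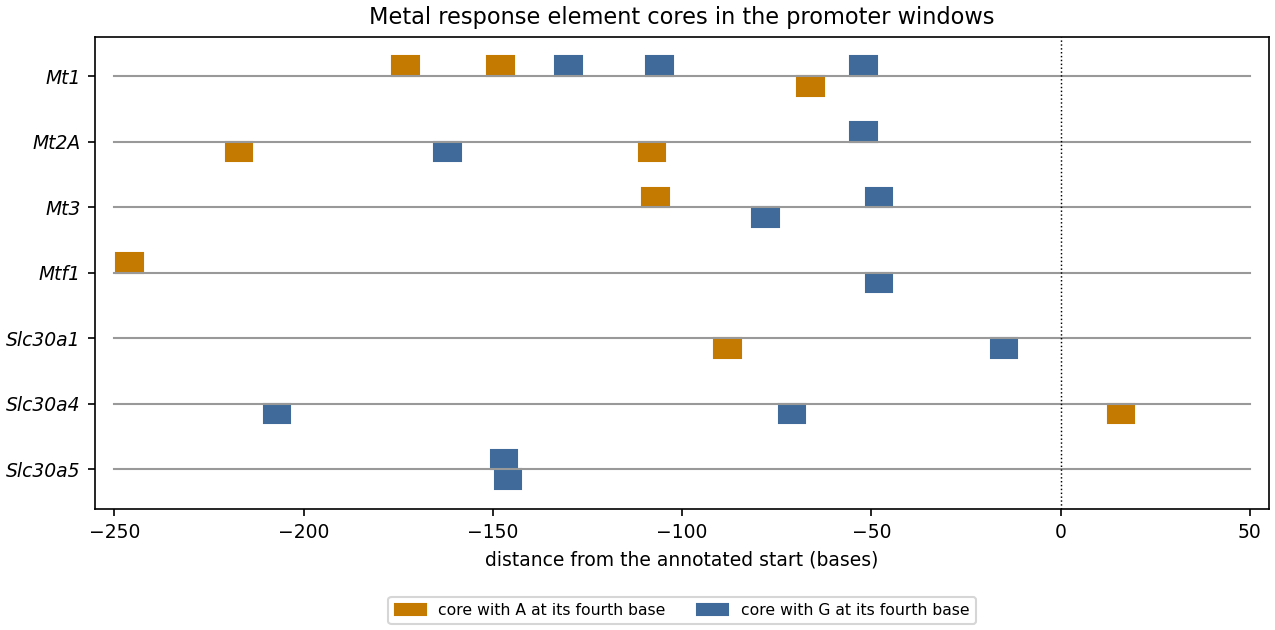
Metal response element cores in the promoter windows of 7 genes, by distance in bases from the annotated start; boxes above a line are on the gene's strand, boxes below it on the opposite strand, and colour tells TGCACNC from TGCGCNC. Mt1 carries 6 cores and Mt2A 4, against 2 in Slc30a1.

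None of the metallothionein, Mtf1 or SLC30 probes passed the test in either direction. Mt1 and Mt2A had slightly lower means in NTA livers, with log2 differences of −0.24 to −0.18, with groups that overlapped, and the exporter probes differed by −0.23 to 0.08. Limma called 0 of the 13 probes tested at a Benjamini-Hochberg adjusted p under 0.05, against 0.0341% of the 38168 probes tested on the array (13 higher, 0 lower). At an unadjusted p under 0.05 the count was also 0 of 13, where the array as a whole gave 7.38% (3.65% higher and 3.73% lower). In bulk liver RNA, fewer cells of a type and less RNA per cell cannot be told apart. The remaining 2 of the 15 probes, those of Mt3, did not rise clearly above background in any liver and were not tested. All values are log2 of the processed signal over its array's 75th percentile, and differences are NTA minus vehicle.

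Mt1, the major inducible metallothionein of liver, was measured by 2 probes. Probe A_64_P123603 read 9.30, 9.33 and 9.13 in NTA replicates 1 to 3, against 9.63, 9.31 and 9.49 in vehicle replicates 1 to 3. NTA replicate 3 was the lowest of the 6 livers and vehicle replicate 1 the highest, while NTA replicates 1 and 2 lay beside vehicle replicate 2, so the groups overlapped. The means were 9.25 ± 0.11 with NTA and 9.48 ± 0.16 with vehicle (SD, n = 3 each), a log2 difference of −0.22 (SE 0.13, 95% confidence interval −0.52 to 0.08; limma, Benjamini-Hochberg adjusted p = 0.755). Probe A_43_P13297 read 9.12, 9.09 and 8.93 with NTA, against 9.49, 9.11 and 9.26 with vehicle, and gave −0.24 (SE 0.13). The 2 probes put the vehicle livers in the same order, with replicate 1 highest and replicate 2 lowest.

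Mt2A, the second liver metallothionein, gave the same picture with 3 probes. Probe A_42_P567268 read 8.68, 8.43 and 8.48 in NTA livers, against 8.98, 8.51 and 8.62 in vehicle livers. Its means were 8.53 ± 0.13 with NTA and 8.70 ± 0.24 with vehicle (SD, n = 3 each), a log2 difference of −0.18 (SE 0.15, 95% confidence interval −0.54 to 0.19; limma, Benjamini-Hochberg adjusted p = 0.838). Vehicle replicate 1 again stood highest and the other 2 vehicle livers fell among the NTA livers. Probe A_64_P158939 read 8.19, 7.94 and 7.95 with NTA, against 8.56, 7.94 and 8.18 with vehicle, a difference of −0.20 (SE 0.18). Probe A_42_P567267 read 7.993, 7.782 and 7.761 with NTA, against 8.477, 7.784 and 8.001 with vehicle, a difference of −0.24 (SE 0.19). In all 5 Mt1 and Mt2A probes every NTA liver was below the vehicle mean, yet in none did the groups separate.

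**Figure D2:**
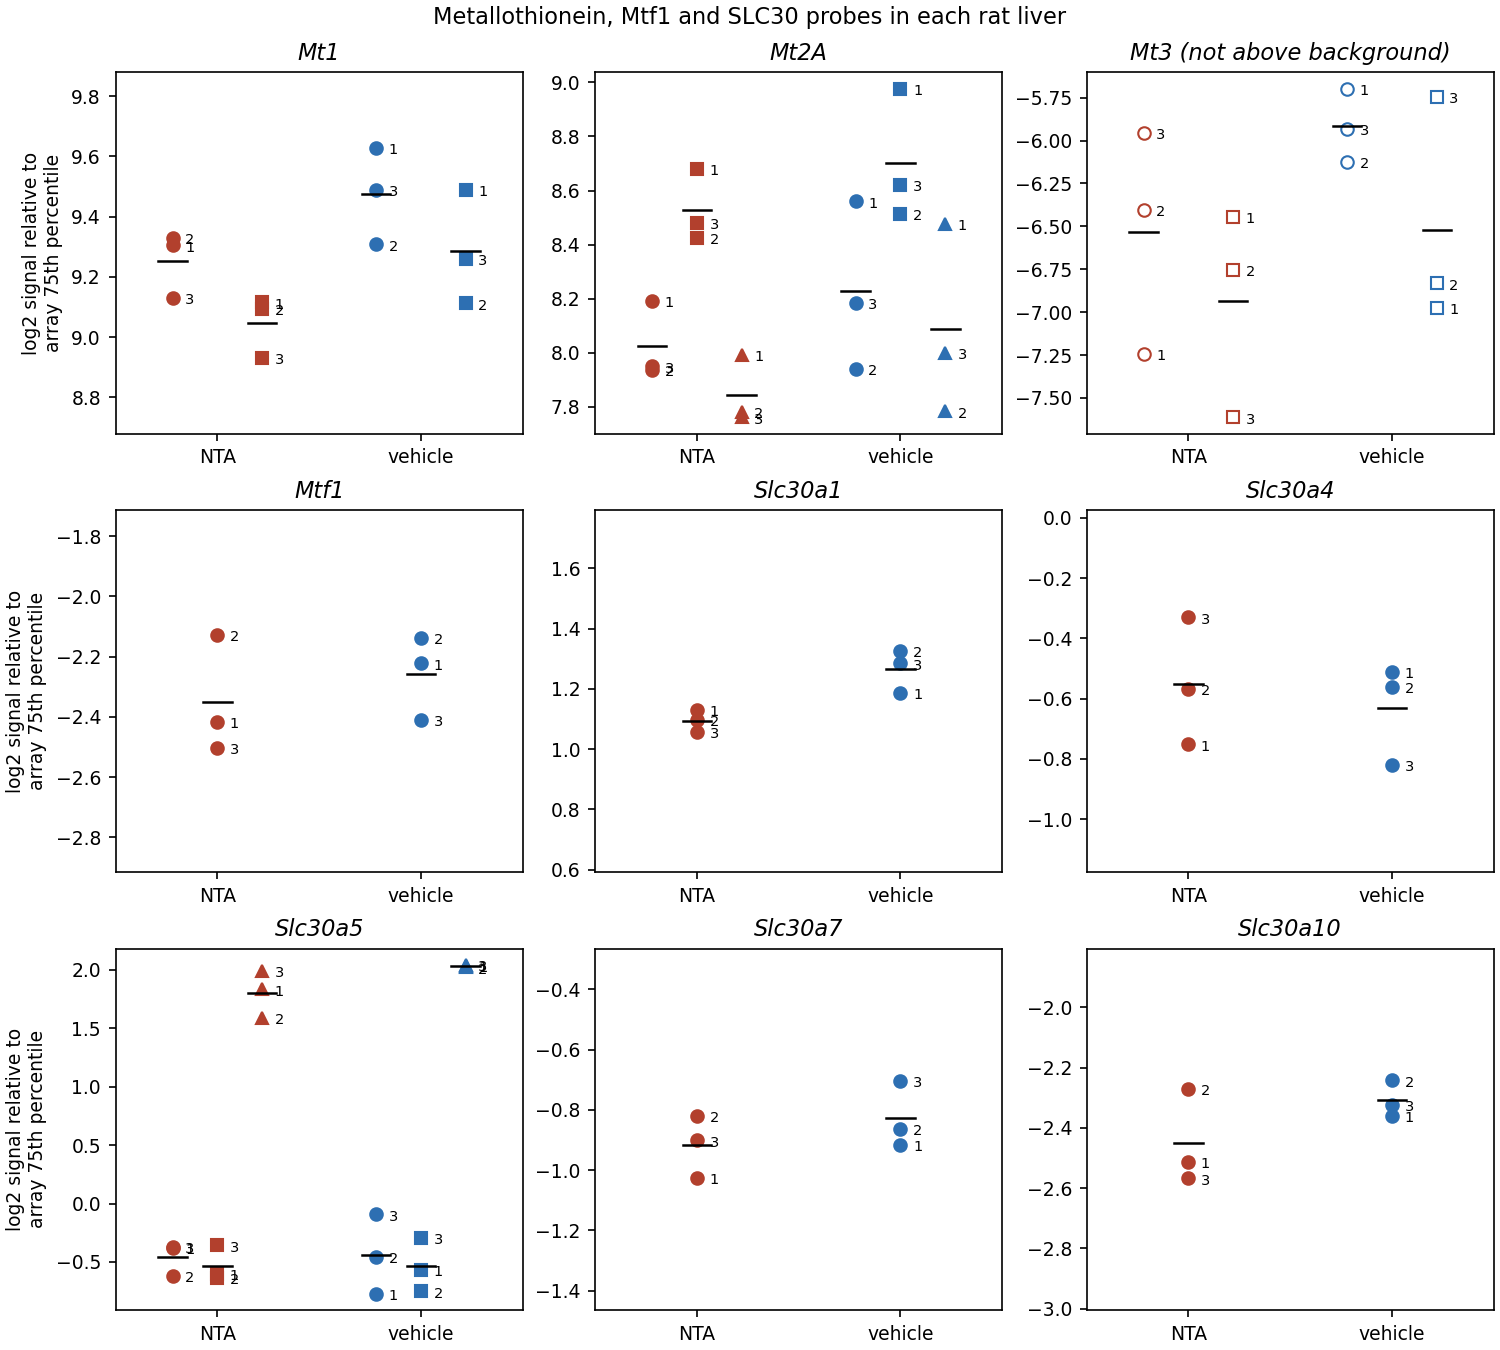
Log2 of the signal over its array's 75th percentile for each of the 15 probes in each liver, with NTA left of vehicle in each panel; marker shapes are probes, digits are replicate numbers, black bars are each probe's group means and open markers are probes not well above background. Mt1 and Mt2A overlap between groups in every probe, and Slc30a1 and 1 probe of Slc30a5 (triangles) do not.

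The size of the metallothionein difference moved with single livers, and its extremes came from leaving out vehicle replicate 1 or vehicle replicate 2. Without vehicle replicate 1 the difference of Mt2A probe A_42_P567268 was −0.04, and without vehicle replicate 2 it was −0.27. The same 2 omissions moved Mt2A probe A_42_P567267 to −0.05 and −0.39 and Mt2A probe A_64_P158939 to −0.04 and −0.35. For Mt1 they gave −0.14 and −0.30 with probe A_64_P123603, and −0.14 and −0.33 with probe A_43_P13297. No probe of either gene passed in any of these fits.

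The metallothioneins spanned more among vehicle livers than among NTA livers, with vehicle replicate 1 highest in all 5 probes. The 3 vehicle livers spanned 1.25-fold and 1.30-fold for the Mt1 probes and 1.38-fold, 1.54-fold and 1.62-fold for the Mt2A probes. The NTA livers spanned 1.14-fold and 1.15-fold for Mt1 and between 1.17-fold and 1.19-fold for Mt2A. Without vehicle replicate 1, the remaining vehicle livers lay no farther apart than the NTA livers in any of the 5 probes. That sets 2 livers against 3, and leaving out an extreme liver narrows any range. In Mt1 probe A_64_P123603, vehicle replicate 2 stood farther from replicate 3 than replicate 1 did. The difference in spread was not tested. Over the 6 arrays, the 2 Mt1 probes correlated at r = 0.986, the Mt2A probes at 0.983 to 0.993, and Mt1 with Mt2A probes at 0.792 to 0.923. These points share the same 6 RNA samples and hybridisations.

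The signals were within the measuring range of the scanner. The brightest Mt1 spot reached 48.8% of the saturation value and the brightest Mt2A spot 35.5%, and no metallothionein, Mtf1 or SLC30 spot was flagged as saturated or non-uniform. At the dim end, the Slc30a10 spot was as low as 1.86 times its local background and the Mtf1 spot 2.17 times.

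**Figure D3:**
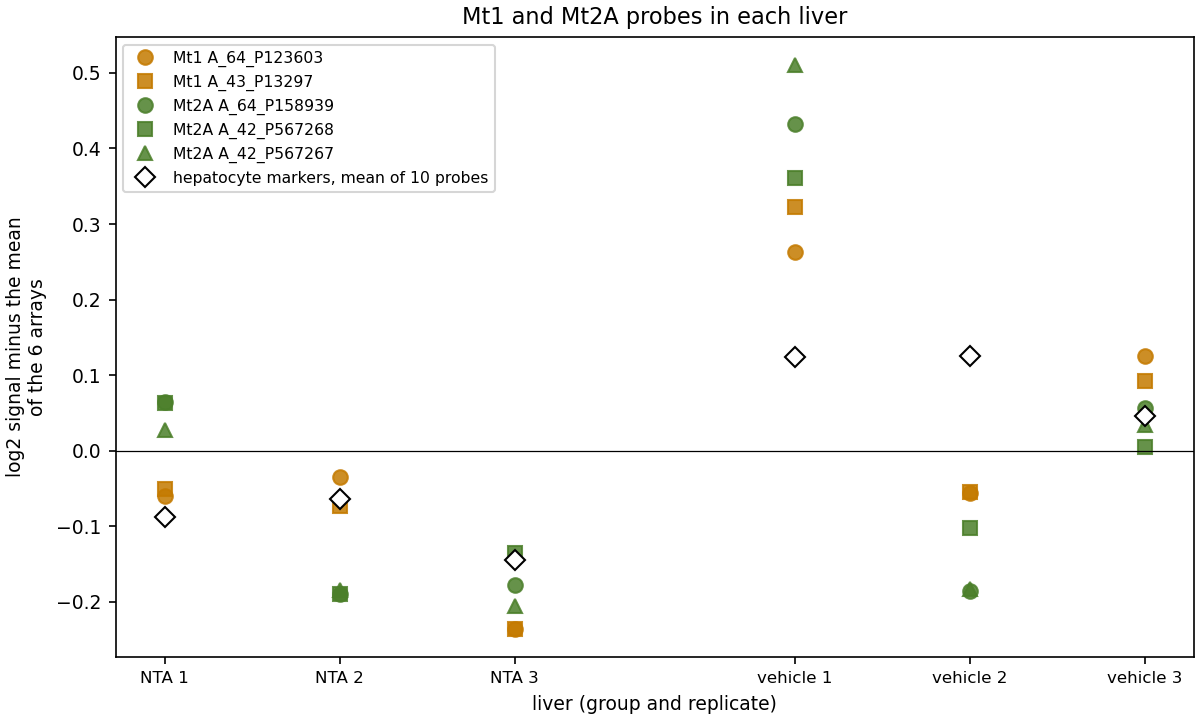
Log2 signal of each Mt1 and Mt2A probe minus its mean over the 6 arrays, by liver with NTA on the left, and the same for the mean of 10 hepatocyte marker probes (open diamonds). Vehicle replicate 1 is the highest liver for all 5 metallothionein probes, and the mean of the hepatocyte markers is lower in all 3 NTA livers than in all 3 vehicle livers.

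Hepatocyte markers were read in the same livers. All 10 probes for the markers Alb, Apoa1, Ttr, Tf, Cps1 and Serpina1 stood well above background on every array, so the labelled tissue held by its markers. All 10 had differences below 0, as had 55.8% of all probes tested, with a median of −0.17, equal to the median of −0.17 over the 13 metallothionein, Mtf1 and SLC30 probes, and 0 of the 10 passed (limma, Benjamini-Hochberg adjusted p from 0.699 to 0.912; unadjusted p under 0.05 in 0). The summed linear level of these markers, in units of the array's 75th percentile, was 6859 to 7688 in NTA livers and 8152 to 8599 in vehicle livers. Taken singly, 4 of the 10 probes had every NTA liver below every vehicle liver, against 7.83% of all probes tested. When each array was scaled to its hepatocyte markers, a choice made after seeing these values, Mt1 differed by −0.02 and Mt2A by 0.02 (brightest probes). The other Mt1 probe was then at −0.04 and the other Mt2A probes at −0.005 and −0.04. All probes on the array differed by a median of 0.17 under that scaling.

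Markers of other cell types were mostly above 0, the opposite side from hepatocytes. Erythroid markers had 6 of 6 tested probes above 0 (of 8, 2 not tested), with a summed level of 286 to 435 in NTA livers and 233 to 261 in vehicle livers. Sinusoidal endothelium markers had 8 of 8 above 0, at 60.8 to 65.7 with NTA and 48.2 to 57.7 with vehicle, and lymphocyte markers 3 of 4 (of 6), at 1.59 to 1.67 and 1.26 to 1.53. The erythroid, endothelium and lymphocyte sums each rest mostly on a single bright probe. Those are Hbb probe A_64_P028036 (log2 difference 0.47, SE 0.17), Kdr (0.22, SE 0.12) and Cd3d (0.05, SE 0.14). The groups overlapped for Kdr and Cd3d. Kupffer cell and macrophage markers had 10 of 10 above 0 with overlapping sums, 96.9 to 192 with NTA and 59.0 to 143 with vehicle. Stellate cell and fibroblast markers had 8 of 12 above 0, at 21.8 to 29.9 with NTA and 20.6 to 22.1 with vehicle, and biliary markers 3 of 4 (of 5), at 1.31 to 1.70 and 1.08 to 1.82. At an unadjusted p under 0.05 in limma stood 6 of 8 endothelium, 4 of 6 erythroid, 2 of 4 lymphocyte, 1 of 10 Kupffer cell, 1 of 12 stellate cell and 0 of 4 biliary probes, all higher with NTA, against 3.65% higher over the array. After adjustment 0 passed. The T cell marker Cd3e had no signal well above background in any liver. The part of cell makeup in the metallothionein values was not tested.

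Mt3, the brain metallothionein, did not stand well above background in any liver with either probe. Its 2 probes read between −7.61 and −5.96 in NTA livers and between −6.98 and −5.70 in vehicle livers, and no fold is given. Mtf1, the zinc finger factor that drives the metallothionein promoters, read −2.42, −2.13 and −2.50 in NTA livers, against −2.22, −2.14 and −2.41 in vehicle livers. The groups overlapped across nearly their whole range. The difference was −0.09 (SE 0.14, 95% confidence interval −0.43 to 0.25; limma, Benjamini-Hochberg adjusted p = 0.911). It ran from −0.20 without NTA replicate 2 to −0.02 without NTA replicate 3.

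Slc30a1 encodes the plasma membrane exporter that carries zinc out of the cell, and its mouse gene is an MTF1 target. It read 1.130, 1.096 and 1.057 in NTA livers, against 1.186, 1.327 and 1.284 in vehicle livers. Every NTA liver lay below every vehicle liver, by as little as 0.06 between NTA replicate 1 and vehicle replicate 1. The means were 1.09 ± 0.04 with NTA and 1.27 ± 0.07 with vehicle (SD, n = 3 each), a log2 difference of −0.17 (SE 0.10, 95% confidence interval −0.40 to 0.06; limma, Benjamini-Hochberg adjusted p = 0.755). With normexp background correction the difference turned to 0.04. With scaling to the hepatocyte markers it was 0.03.

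Slc30a5, which loads zinc into the secretory pathway, had 3 probes that did not give the same answer. Probe A_44_P996806 read 1.83, 1.59 and 1.99 in NTA livers, against 2.04, 2.02 and 2.04 in vehicle livers, with every NTA liver below every vehicle liver. Its difference was −0.23 (SE 0.13, 95% confidence interval −0.54 to 0.08; limma, Benjamini-Hochberg adjusted p = 0.752), and −0.05 with normexp background correction. The vehicle livers spanned only 1.01-fold there, against 1.32-fold for the NTA livers. Without NTA replicate 2 the difference was −0.12 and without NTA replicate 3 it was −0.32. Probe A_43_P10200 read −0.38, −0.62 and −0.37 with NTA, against −0.77, −0.46 and −0.09 with vehicle, a difference of −0.02 (SE 0.19). Probe A_44_P248222 read −0.60, −0.64 and −0.36 with NTA, against −0.57, −0.75 and −0.29 with vehicle, a difference of 0.00 (SE 0.15). On both of these all NTA livers lay within the range of the vehicle livers, as for 21.6% of all probes, and the sign of the difference changed with the array left out. The 3 probes correlated with each other at only 0.288 to 0.611 over the 6 arrays.

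The groups did not overlap for 2 of the 13 probes, 0 with NTA above and 2 with NTA below, which are Slc30a1 and Slc30a5 probe A_44_P996806. Over the whole array 13.4% of probes did not overlap, 5.54% with NTA above and 7.83% with NTA below. With 3 rats against 3, an exact two-sided permutation test cannot give a p below 0.1.

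Slc30a4, a vesicular transporter whose loss in mice leaves milk short of zinc, had the highest difference of the 13 probes. It read −0.75, −0.57 and −0.33 with NTA, against −0.51, −0.56 and −0.82 with vehicle. The livers of the 2 groups interleaved. The difference was 0.08 (SE 0.15, 95% confidence interval −0.28 to 0.44; limma, Benjamini-Hochberg adjusted p = 0.930), and it turned to −0.03 when NTA replicate 3 was left out and to −0.01 when vehicle replicate 3 was. Slc30a7, a second transporter of the secretory pathway, read −1.03, −0.82 and −0.90 with NTA, against −0.92, −0.86 and −0.70 with vehicle. Its difference was −0.09 (SE 0.11; adjusted p = 0.892 in limma), and 0.01 with normexp background correction. Slc30a10, which exports manganese in humans, read −2.51, −2.27 and −2.57 with NTA, against −2.36, −2.24 and −2.33 with vehicle. NTA replicate 2 lay among the vehicle livers and the other 2 below them. The difference was −0.14 (SE 0.12; limma, Benjamini-Hochberg adjusted p = 0.830).

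**Figure D4:**
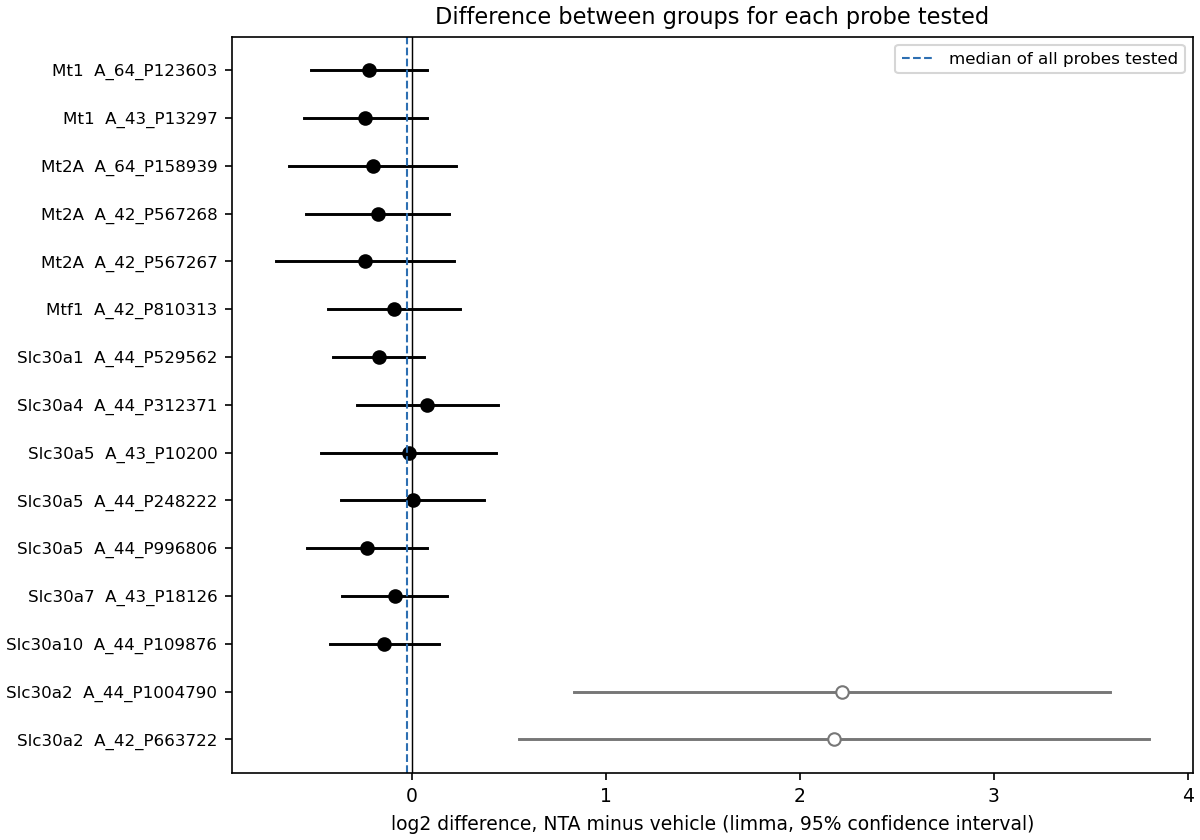
Log2 difference between NTA and vehicle for each tested probe with its 95% confidence interval from limma; filled points are the 13 metallothionein, Mtf1 and SLC30 probes, open points the 2 probes of Slc30a2 (vehicle signal at background in 1 or all 3 livers, so their intervals are not measures of size), and the dashed line is the median of all probes tested. The 13 intervals all include 0 and lie between −0.70 and 0.44.

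Each of the 13 intervals lay between −0.70 and 0.44, inside a 2-fold change in either direction. For Mt1 probe A_64_P123603 the interval ran from 0.697-fold to 1.06-fold of vehicle, and for Slc30a1 from 0.755-fold to 1.04-fold. These are single-probe intervals without correction for the number of probes. Of the 13 differences 11 were below 0 and 2 above, with a median of −0.17 and a range of −0.24 to 0.08. Over all probes tested 55.8% were below 0 and the median was −0.02.

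**Figure D5:**
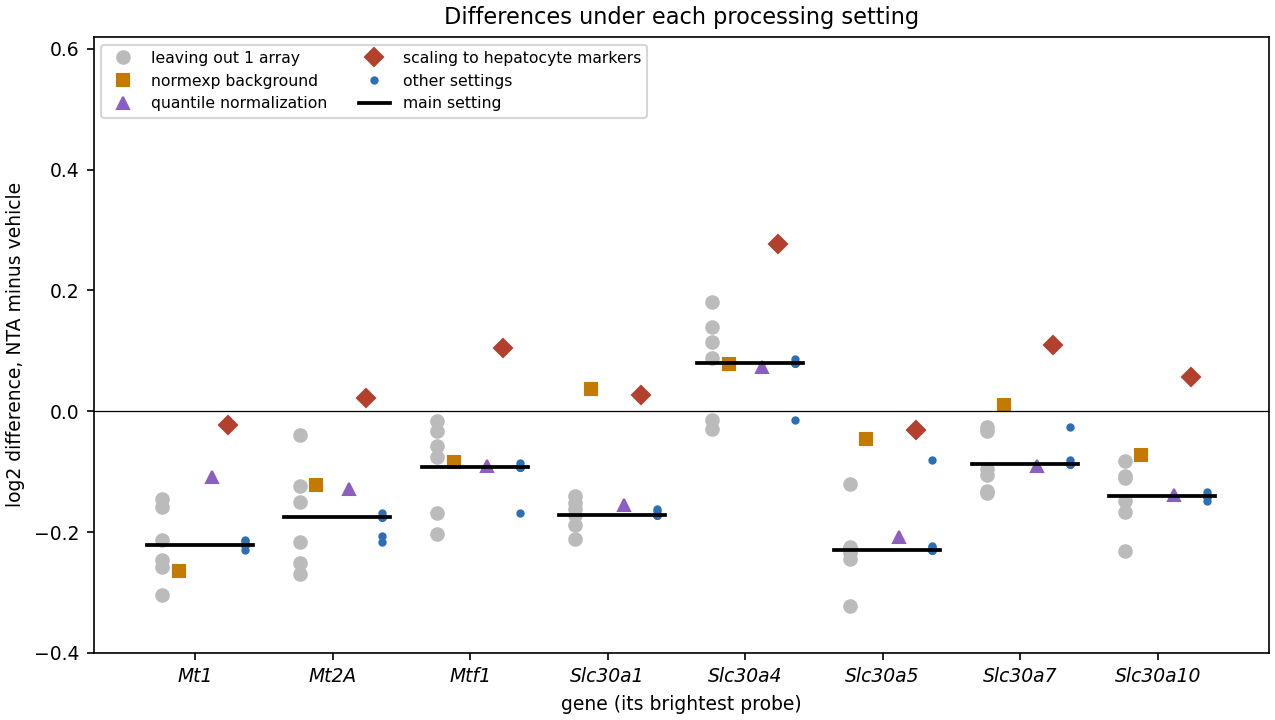
Log2 difference between NTA and vehicle of each gene's brightest probe under the main setting (black bars) and under each alternative (markers). Scaling to the hepatocyte markers raises every gene by the same amount, and Slc30a1 is above 0 under that scaling and with normexp background correction, against −0.17 in the main setting.

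Of the SLC30 family outside these genes, Slc30a2 encodes a vesicular zinc transporter known from the mammary gland, where human mutations lower zinc in milk. Probe A_42_P663722 read −1.78, −2.38 and −1.07 in NTA livers, against −2.91, −5.44 and −3.41 in vehicle livers. Every NTA liver was above every vehicle liver, and the signal was well above background in 3 of 3 NTA livers and 2 of 3 vehicle livers, vehicle replicate 2 being the exception. The difference was 2.18 (SE 0.68) and did not pass (limma, Benjamini-Hochberg adjusted p = 0.567), and it was 1.42 without vehicle replicate 2 and 1.12 with normexp background correction.

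Slc30a2 probe A_44_P1004790 read −4.22, −4.58 and −3.22 with NTA, against −5.45, −7.42 and −5.80 with vehicle, where no liver was well above background. The measured means were −4.01 in NTA livers and −6.22 in vehicle livers (limma, Benjamini-Hochberg adjusted p = 0.527). In the main setting, vehicle values were raised to each array's dimmest signal well above background, and the NTA mean was then 2.34-fold higher. This is a point estimate without sampling error and not a lower limit. With normexp background correction the log2 difference was 0.41, below the 1.23 in log2 of that estimate. Both Slc30a2 probes entered the test only through the NTA livers, where they were higher, so their direction is a description and supports nothing. Of the 2 RefSeq promoter windows of Slc30a2, 1 held 3 metal response element cores and the other 0.

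Elsewhere in the family, Slc30a8 had no signal well above background in any liver, and Slc30a9 differed by 0.04 (SE 0.10). The 2 Slc30a3 probes differed by −0.35 (SE 0.23) and −0.56 (SE 0.71), and −0.10 and 0.16 without vehicle replicate 1. Slc30a6 was not analysed here. Among 22 tested SLC39 importer probes 0 passed. In limma 3 had an unadjusted p under 0.05, all higher with NTA, against 3.65% higher and 3.73% lower over the array. They were 1 of 3 Slc39a5 probes at 0.72 (SE 0.17), Slc39a12 at 0.63 (SE 0.22) and 1 of 2 Slc39a11 probes at 0.27 (SE 0.11). The other 2 Slc39a5 probes were too dim to test, and the other Slc39a11 probe ran the opposite way at −0.14 (SE 0.14). With normexp background correction Slc39a5 was at 0.43 and Slc39a12 at 0.21 (limma, unadjusted p = 0.112). The 4 probes of Slc39a14, the importer that inflammation raises in liver, lay between −0.12 and 0.11.

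Other genes that MTF1 controls in mouse did not pass either. Of 8 tested probes for Gclc, Selenow, Csrp1, Ndrg1, Pgf and Txnrd2, 0 passed and 0 had an unadjusted p under 0.05 in limma, with 4 above 0 and 4 below. The 2 smallest p belonged to Pgf, placental growth factor, at −0.59 (SE 0.27) and Ndrg1, a stress-response gene, at 0.38 (SE 0.19). Without NTA replicate 3 they were at −0.37 and 0.22, and with normexp background correction at −0.24 and 0.22. Without vehicle replicate 3 Pgf was at −0.39, and without vehicle replicate 1 Ndrg1 was at 0.24. Gclc, the catalytic subunit of the first enzyme of glutathione synthesis, was at 0.00 (SE 0.17) and 0.02 (SE 0.15) with its 2 probes. Over the other SLC30, SLC39 and MTF1 target lists together, 0 of 35 probes passed (median of all 35 −0.01). In limma 5 had an unadjusted p under 0.05, all higher, against 3.65% higher and 3.73% lower over the array. Of these 5, 2 are the Slc30a2 probes, which could enter only as higher.

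Metallothionein genes also answer to glucocorticoids and to IL-6, and genes of both responses were read in the same livers. Of 12 probes for glucocorticoid receptor targets 0 passed and 0 had an unadjusted p under 0.05, with a median of −0.07. Per1, a clock gene, was at 0.12 (SE 0.31) and −0.37 (SE 0.24) with its 2 probes, and the phosphatase gene Dusp1 at −0.61 (SE 0.51). These values rested on single livers: omitting vehicle replicate 3 put Dusp1 at −1.11, and omitting vehicle replicate 1 put it at −0.22. The first Per1 probe ran from −0.10 (without NTA replicate 3) to 0.41 (without vehicle replicate 2), and the second from −0.58 (without NTA replicate 3) to −0.21 (without NTA replicate 1). Of 17 probes for acute phase genes 0 passed. In limma 1 higher and 4 lower had an unadjusted p under 0.05, against 3.65% and 3.73% over the array. Lcn2, an iron-siderophore carrier raised by inflammation, read −1.57, −1.41 and −0.48 with NTA, against −2.49, −1.71 and −2.39 with vehicle (difference 1.05, SE 0.34; limma, Benjamini-Hochberg adjusted p = 0.581). A2m, the main acute phase protease inhibitor of the rat, ran the opposite way at −1.36 to −1.43 with its 3 probes (SE 0.50 to 0.53). These are 3 of the 4 lower probes, and the other was 1 of 2 Fgg probes at −0.26 (SE 0.10). Without vehicle replicate 3 the A2m probes were at −0.83 to −0.93. Vehicle replicate 3, the liver with the highest A2m, was the second highest for Mt1. For Mt2A, NTA replicate 1 stood above it with probes A_42_P567268 (8.68 against 8.62) and A_64_P158939 (8.192 against 8.184), and below it with A_42_P567267. The liver highest for Mt1 and Mt2A was vehicle replicate 1, which was second highest for A2m with all 3 probes. A link between A2m and the metallothioneins was not tested.

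The genes whose pattern over the 6 arrays was most like that of the brightest Mt1 probe, among 10855 other genes above background on all arrays, were Gab1, Slc22a7, B3gnt3, Gss and Apoa1. Their Pearson correlations were 0.974 to 0.985, and each was also highest in vehicle replicate 1 and lowest in NTA replicate 3. Slc22a7 is an organic anion transporter of hepatocytes, Gss is glutathione synthetase and Apoa1 is the main protein of high density lipoprotein. Mt2A ranked 317 by the same measure (r = 0.792), Slc30a1 had r = 0.447 and Slc30a4 r = −0.408. For Slc30a1 the nearest genes were Lifr, Pitx1, Lrrfip2, Ubb and Mllt1, at 0.980 to 0.993. These correlations describe 6 arrays, share the same hybridisations and were picked as the highest of many.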

How the data were processed

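Scanner files of 6 one-colour arrays were read, 1 per rat. Agilent Feature Extraction produced them (10.7 in the submitters' processing notes, 10.7.1.1 in the headers), for array design 035170 and build rn4, per the file headers. The deposited processed signal is a background-subtracted linear intensity, per the file headers. The authors' deposited series table is a linear ratio, the processed signal over the array's 75th percentile (100.0% of values matched within 0.0001 plus 0.2%; column medians 0.096 to 0.100), so it is no independent check.

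Values were log2 processed signal minus log2 of the array's 75th percentile over 61657 non-control probes, of which 62.4% to 64.5% were well above background; 1 to 14 non-uniform spots per array were left out. Probes well above background on all 3 arrays of a group were kept (38168). Names came from RefSeq accessions on GRCr8 (27460 probes with 1 symbol, 34197 with none). Each probe was fitted on its own in limma 3.58.1 (R 4.3.3; lmFit, eBayes, two-sided, Benjamini-Hochberg over all probes, threshold 0.05), with 4 residual and 2.57 prior degrees of freedom, and the script was tested on simulated data. The genes, lists and tests were chosen with earlier results of these data known, so lists are described by counts and medians. All probes of the 9 genes are named, and from other lists the 2 genes with the smallest p and Slc39a14. Also named are genes singled out after their values were seen (Slc39a11, Slc30a8, Slc30a9, Gclc, Fgg, Cd3e, Cd3d, Kdr and Hbb). No probe was matched to Slc39a10, which was not analysed here. The scanner files hold no mean spot signal, so normexp (offset 50) was run on median signals instead. The number of arrays limits the precision, and p-values measure the spread between these rats.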

Additional observations from a re-analysis of the deposited data

How the results depend on the processing

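Over 18 alternative settings, limma called 0 metallothionein, Mtf1 or SLC30 probes, 0 probes of other zinc genes and 0 of glucocorticoid or acute phase genes. The lowest adjusted p of any of the 13 probes was 0.399, for Slc30a4 with scaling to the hepatocyte markers, and both Mt1 probes had an unadjusted p under 0.05 with normexp (differences of −0.26 and −0.32). Of 224 alternative values for the 13 probes, 206 kept their sign and 18 did not, 6 of these 18 under scaling to the hepatocyte markers, which adds 1 constant to every probe. Part of the 206 could not have changed. Settings that alter only which probes are kept, the eBayes options or the replicate block return each probe's main difference. The median difference of the 13 probes, −0.17 in the main setting, was −0.084 with normexp, −0.11 with quantile normalization and 0.026 with scaling to the hepatocyte markers, and ran from −0.19 to −0.13 with 1 array left out. The last scaling and normexp on median signals were added after seeing the files, and the cause of these shifts was not tested. Scaling to the hepatocyte markers put the median of all probes at 0.17, against −0.02 in the main setting. The 13 calls over the whole array became 6 to 11 with 1 array left out, 6 without NTA replicate 1 and 7 without NTA replicate 2. With the replicate number as a block there were 0 calls over the array. Same-numbered arrays deviated from their group means with correlations of 0.158, −0.004 and −0.085, so the numbers do not pair the rats. Vehicle replicate 3 was scanned alone on another day, and scan day as a block gave the same differences as leaving it out (9 calls over the array). The Mtf1 and Slc30a10 probes are read close to background.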
